A study of Mus musculus with 4 samples.

Results

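The analysis concerned the 4 ribosomal RNA (rRNA) entries that GENCODE places side by side on mouse chromosome 17, CT010467.1, Gm42418, Gm26917 and AY036118. They were chosen by these names and are 4 of the 50600 genes counted. Counts came from 4 libraries of Th2 (T-helper 2) cells of the mouse, a CD4 T cell type that makes the cytokine IL-4. The libraries, replicates 1 to 4, form 1 group of C57BL/6NJ primary cells with sex not collected and age unknown, and the file headers name a sort at 72 h. The labels give each library its own biosample and all of them 1 donor identifier, and there is no control or treated group. The assay is labelled total RNA-seq, but the name of the linked library protocol speaks of poly(A) RNA.

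Ribosomal RNA is the structural and catalytic RNA of the ribosome. RNA polymerase I copies the tandem rRNA genes in the nucleolus into 1 long precursor. The precursor holds an external transcribed spacer, the small-subunit rRNA, an internal spacer and the large-subunit rRNAs, and cleavage and modification guided by small nucleolar ribonucleoproteins (snoRNPs) release the mature RNAs. Activated T cells make many ribosomes before they divide. Mature rRNA has no poly(A) tail and is usually depleted from a library or left behind by poly(A) selection, so the counts below measure what remained in the libraries and was assigned to these annotations.

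The 4 entries lie within 5815 bp of mm10, at chr17:39843013-39848827, and no other gene of the files is annotated within 50 kb. Gm26917 (chromosome 17, 39843013 to 39846341, plus strand, lincRNA, 3329 bp of exon) comes first. Only 11 bp separate it from CT010467.1 (39846353 to 39848827, minus strand, 2466 bp), the single member with the biotype rRNA. Gm42418 (39846958 to 39848788, plus strand, lincRNA, 1831 bp) lies opposite CT010467.1, and 1822 bp of its exon are opposite CT010467.1 exon. AY036118 (39847113 to 39848035, minus strand, lincRNA, 923 bp) lies wholly inside the exon of CT010467.1 on the same strand. RefSeq places a pseudogene of small-subunit rRNA, Rn18s-rs5, over the longer CT010467.1 transcript. Both are 1849 bp long and their bounds differ by 1 bp at each end. RefSeq lists Gm42418 as a synonym of Rn18s-rs5. It gives AY036118 at 39848112 to 39898385, a span that does not overlap the GENCODE gene of that name, so counts of AY036118 from different annotations describe different bases.

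**Figure D1:**
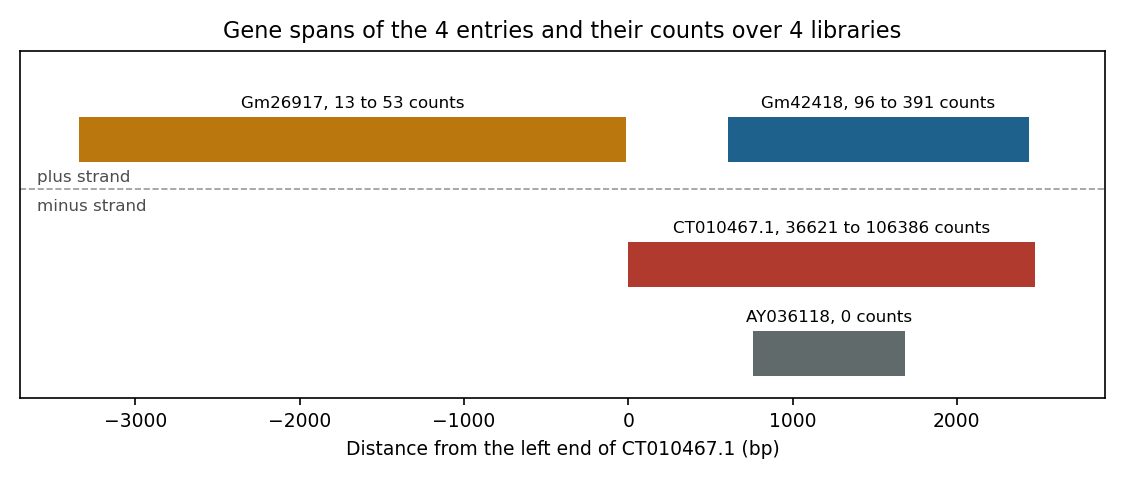
Gene spans of the 4 entries by strand, with the distance in bp from the left end of CT010467.1 on the horizontal axis and the lowest and highest count over the 4 libraries above each bar. CT010467.1 held 36621 to 106386 counts, the plus-strand gene Gm42418 opposite it 96 to 391, and AY036118, which lies inside CT010467.1, 0.

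The sequences show on which strand the rRNA reads. The following 2 lines give the same 100 bases, chr17:39846353-39846452, first as the 3′ end of the CT010467.1 transcript (minus strand) and then as the plus strand, with the outermost 20 bases of the gene in capitals (sequences from the GENCODE M21 transcripts, GRCm38).
CT010467.1 3′ end: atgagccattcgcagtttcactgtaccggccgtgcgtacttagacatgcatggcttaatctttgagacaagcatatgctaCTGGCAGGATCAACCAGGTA
Plus strand: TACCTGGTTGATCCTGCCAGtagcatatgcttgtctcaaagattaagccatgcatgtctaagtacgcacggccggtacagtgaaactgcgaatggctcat
As background, the capitals of the plus strand are the conserved start of eukaryotic small-subunit rRNA, so CT010467.1 is annotated on the strand complementary to that RNA. The other end of the unit is shown by Gm42418, chr17:39848142-39848261 on the plus strand, with the bases that lie opposite the longer CT010467.1 transcript in capitals.
Gm42418: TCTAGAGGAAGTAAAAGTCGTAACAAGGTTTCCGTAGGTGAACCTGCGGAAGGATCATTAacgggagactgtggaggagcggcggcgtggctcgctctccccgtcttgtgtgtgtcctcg
The capitals end in the conserved 3′ end of small-subunit rRNA, and the lower-case bases after them belong to the internal spacer. Over the 1244 bp that both transcripts cover, Gm42418 is the reverse complement of the longer CT010467.1 transcript by construction, since both are the same genome bases annotated on opposite strands. Gm26917 ends just before the start of the rRNA, where the external spacer lies in an rRNA gene. Its last 80 bases, chr17:39846262-39846341 on the plus strand, are shown for their base composition, with nothing in capitals.
Gm26917: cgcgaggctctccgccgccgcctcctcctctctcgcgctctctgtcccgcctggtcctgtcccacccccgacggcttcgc
The full-length Gm26917 transcript is 69.1% G and C, against 55.4% for the longer CT010467.1 transcript, 60.2% for Gm42418 and 54.4% for AY036118. BLAST of the 6 member transcripts against the 141767 GENCODE M21 transcripts found 1 gene outside the locus, Slc22a19, with a stretch of 68 bp at 83.8% identity and 0 counts in all 4 libraries. That search covers annotated transcripts and not the repeated rRNA genes themselves. The file headers show that neither the option for multi-mapping fragments nor that for fragments over several genes was set, so a fragment that aligns to several rRNA copies, or whose ends fit 2 same-strand genes equally well, was not counted.

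This counting rule fixes the value of AY036118. It had 0 counts in replicates 1, 2, 3 and 4. All 923 of its 923 bp are also CT010467.1 exon on the same strand, so no fragment can fit AY036118 better than CT010467.1, and none can be assigned to AY036118. The following 2 stretches of the CT010467.1 transcript (minus strand) show its boundaries with AY036118, chr17:39847976-39848095 and chr17:39847053-39847172, with the bases of AY036118 in capitals.
5′ boundary: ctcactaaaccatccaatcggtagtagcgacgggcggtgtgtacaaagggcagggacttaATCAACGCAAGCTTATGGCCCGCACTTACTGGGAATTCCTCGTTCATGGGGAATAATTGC
3′ boundary: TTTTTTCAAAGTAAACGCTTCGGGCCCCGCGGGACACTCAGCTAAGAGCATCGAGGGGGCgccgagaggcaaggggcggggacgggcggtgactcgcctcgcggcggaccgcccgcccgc
The CT010467.1 exon that AY036118 does not share is 166 bp on its 5′ side and 760 bp on its 3′ side in the longer transcript, and 1543 of the 2466 bp of the whole gene. The 0 of AY036118 is therefore no measurement of its RNA, and the counts of CT010467.1 leave out the fragments that fit both genes equally, whose number the counts do not give. A count of 0 would otherwise allow a share of up to 0.000162% to 0.000235%, the value of 3 counts in these libraries.

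The libraries held 1274431 to 1857433 counts, and of these 8.54% to 20.1% fell on genes with no exon opposite an exon of another gene. That share was 16.4%, 8.54%, 9.14% and 20.1% in replicates 1 to 4. All 7 Th2 markers had counts in every library, among them the cytokine genes Il13 with 150, 62, 40 and 208 and Il4 with 104, 110, 84 and 64. Of 9 markers of other cell types, 6 had 0 counts in all libraries: Cd8a, Ms4a1, Lyz2, Elane, Hbb-bs and Ncr1. The 9 together held 753, 868, 670 and 544 counts in replicates 1 to 4. Most of these were Csf1r, a macrophage receptor gene with 871 bp of exon opposite another gene, and the B cell gene Cd79a had 35, 41, 9 and 2. Their part in the results below was not tested. Counts were made with strand option 1, and whether that is the strand of the kit was not tested. If it is the opposite one, the counts of every gene named here, markers and rRNA processing genes included, come from its other strand.

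CT010467.1 was the gene with the most counts in all 4 libraries. It had 63894, 106386, 64021 and 36621 counts in replicates 1 to 4. With 95% Wilson intervals, its share was 3.59% (3.56 to 3.62) in replicate 1, 5.73% (5.69 to 5.76) in replicate 2, 4.43% (4.39 to 4.46) in replicate 3 and 2.87% (2.84 to 2.90) in replicate 4. The share averaged 4.15% ± 1.23 (SD, n = 4). Replicate 2 was highest and replicate 4 lowest, a ratio of 1.99, and no 2 of the intervals overlapped; such intervals cover counting error only. The gene in the next place was Gm20721 in every library, and CT010467.1 exceeded it 1.79, 2.55, 1.91 and 1.43 times in replicates 1 to 4. Per kb of exon, CT010467.1 ranked at place 4, 2, 4 and 6 among all genes. These places use all 2466 bp of its exon, including the 923 bp shared with AY036118. In a bulk library, fewer cells with an RNA and less of it per cell cannot be told apart.

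Gm42418, the plus-strand gene that reads in the direction of the rRNA, had 391, 165, 96 and 314 counts in replicates 1 to 4. As shares these were 220, 88.8, 66.4 and 246 counts per 1000000 counts of the library (CPM), with a mean of 155 ± 90.8 CPM (SD, n = 4). Replicates 1 and 4 were high and replicates 2 and 3 low, the reverse of CT010467.1. By count it ranked between place 772 and place 1765.

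Gm26917, the entry over the external spacer, had the lowest counts of the 3 entries with any: 13, 53, 36 and 45 in replicates 1 to 4. These were 7.30, 28.5, 24.9 and 35.3 CPM, with a mean of 24.01 ± 11.9 CPM (SD, n = 4). Replicate 1 was low, and its Wilson interval of 4.27 to 12.5 CPM lay below those of the other 3 libraries, which overlapped each other. No other gene has an exon opposite Gm26917.

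**Figure D2:**
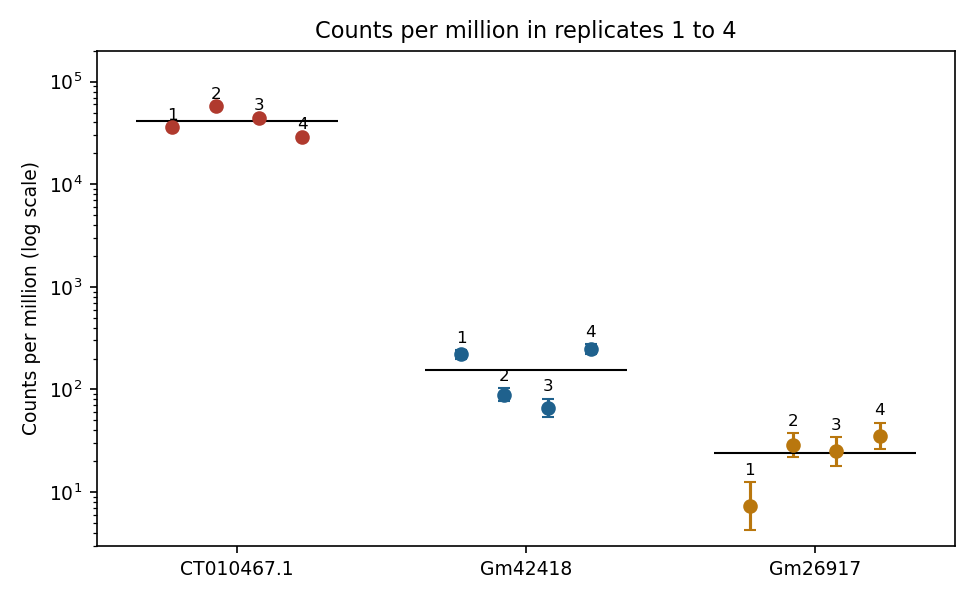
Counts per 1000000 counts of the library (CPM), on a log scale, of the 3 entries with counts in each of replicates 1 to 4 (numbers beside the points), with 95% Wilson intervals as bars and the 4-library mean as a line. CT010467.1 lay between 28735 and 57276 CPM, Gm42418 between 66.4 and 246 and Gm26917 between 7.30 and 35.3, with no overlap between entries.

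Because the entries differ in length, their levels were compared per kb. CT010467.1 had 16846 ± 4972 CPM per kb, Gm42418 84.8 ± 49.6 and Gm26917 7.21 ± 3.59 (SD, n = 4 each), and this order held in 4 of 4 libraries. Differences were taken on the log2 scale of counts per kb with a pseudocount of 0.5 counts. CT010467.1 exceeded Gm42418 by 6.92, 8.90, 8.94 and 6.43 in replicates 1 to 4, a mean of 7.80 ± 1.31. With only the exon length of CT010467.1 not shared with AY036118, that mean was 8.48 ± 1.31. CT010467.1 exceeded Gm26917 by 11.33 ± 1.05 and Gm42418 exceeded Gm26917 by 3.53 ± 1.58. Each of these differences was above 0 in 4 of 4 libraries. A two-sided, exact permutation test that flips signs gave p = 0.13 for each, also after Benjamini-Hochberg adjustment over the 6 pairs of members. With 4 libraries this is the smallest p the test allows, so it cannot reach 0.05 and the sizes carry the comparison. The 3 pairs with AY036118 have a sign fixed by its 0 counts.

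Of the counts of CT010467.1 and Gm42418 together, nearly all were those of the minus-strand gene. These are counts of the whole genes, and how many fell within the bases both genes cover cannot be read from them. CT010467.1 held 99.4% (95% Wilson interval 99.3 to 99.4) of the summed counts of both genes in replicate 1, 99.8% (99.8 to 99.9) in replicate 2, 99.9% (99.8 to 99.9) in replicate 3 and 99.1% (99.1 to 99.2) in replicate 4. For each count of Gm42418 there were 163, 645, 667 and 117 counts of CT010467.1 in replicates 1 to 4. The plus-strand part was thus larger in replicates 1 and 4 than in replicates 2 and 3. In the mitochondrial genome the counts were likewise heaviest on the minus strand, where mt-Nd6, a subunit gene of respiratory complex I, is the only mRNA gene. It had 49626, 42310, 39698 and 38990 counts per kb, while the highest of the 12 plus-strand mRNA genes reached 2548, 2853, 2167 and 2011 in replicates 1 to 4. Of those 12 genes, 5 or 6 had 0 counts in each library. From the counts alone, RNA of the CT010467.1 strand and RNA of the rRNA strand recorded on the opposite one cannot be told apart.

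Between the libraries, each of the 3 entries varied by more than counting error. The chi-square test of the 4 counts against Poisson sampling (TMM-scaled library sizes, mean count 10 or more, Benjamini-Hochberg adjustment at 0.05) called 88.2% of the 7752 genes tested. It called 3 of 3 members tested, while AY036118 did not pass the filter. A call is therefore the usual outcome and sets the entries apart from nothing. Chi-square per degree of freedom was 13117 for CT010467.1, whose adjusted p was too small to be stored as a number, 47.7 for Gm42418 (adjusted p = 1.04e-29) and 11.2 for Gm26917 (adjusted p = 4.94e-07). Without replicate 1 the value for Gm26917 was 0.279 (adjusted p = 0.77), so its call rests on the 13 counts of that library; without replicate 3 it was 17.4. For CT010467.1 the value was 6335 without replicate 2 and 21136 without replicate 3, and 5707 with library sizes from total counts. For Gm42418 it was 29.2 without replicate 3 and 82.3 with total counts. Both genes still passed in each of these cases. The coefficient of variation of TMM-scaled CPM was 43.5% for CT010467.1, 47.0% for Gm42418 and 49.4% for Gm26917, against a median of 47.8% over all genes tested. edgeR also gave a biological coefficient of variation for each, beside its trend for genes of like abundance. The values were 0.326 against 0.302 for CT010467.1, 0.391 against 0.372 for Gm42418 and 0.577 against 0.572 for Gm26917. edgeR draws each such value towards the trend, so their closeness is partly built in and does not show that the entries are typical.

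The entries did not share a profile over the libraries. After TMM scaling, CT010467.1 deviated from its 4-library mean of log2(CPM + 1) by -0.28, 0.74, 0.26 and -0.72 in replicates 1 to 4, Gm42418 by 0.59, -0.36, -0.88 and 0.64, and Gm26917 by -1.51, 0.65, 0.36 and 0.50. The medians over all genes tested were 0.12, -0.01, -0.08 and 0.13. Scaling by total counts kept the order of the libraries for CT010467.1 and Gm42418, while for Gm26917 replicate 4 was highest by total counts and replicate 2 by TMM. The order of CT010467.1 (replicates 2, 3, 1, 4 from high to low) was the reverse of the order of the share of counts on genes with no opposite exon, given above for each library. Whether that share has a part in the profile was not tested. Over many genes, replicates 2 and 3 were the most alike pair, and replicates 1 and 4 came next (median chi-square per degree of freedom 2.56 and 4.08). Gm42418 was high in replicates 1 and 4 and low in replicates 2 and 3, as were the mitochondrial rRNAs and the list medians given below. These profiles follow the split between the libraries and cannot be read as particular to those genes.

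**Figure D3:**
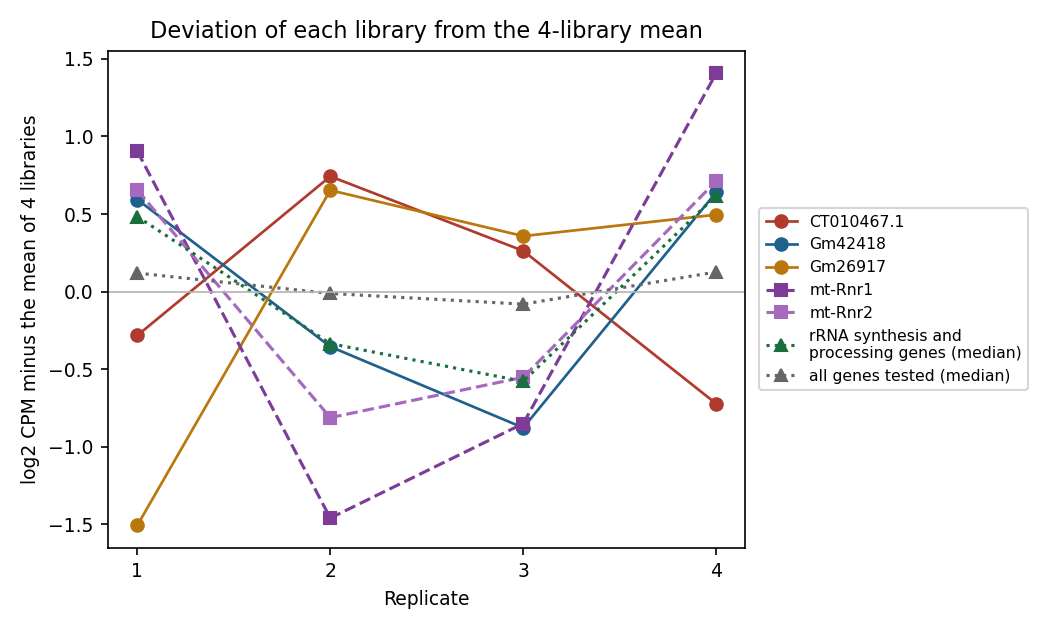
Log2(CPM + 1) after TMM scaling minus the mean of the 4 libraries, for 3 entries, both mitochondrial rRNAs, and the medians of 73 rRNA synthesis and processing genes and of all 7752 genes tested; lines only join the values of a gene or list, since replicates have no order. CT010467.1 is at -0.72 and Gm42418 at 0.64 in replicate 4. The mitochondrial rRNAs, the list median and the median of all genes tested lie with Gm42418 on the same side of 0 in all 4 libraries.

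The genes most like each entry were sought among 1969 others (mean count 100 or more) by the root mean square difference of these deviations over the 4 libraries. For CT010467.1 they were Gm45444 (0.03), Gm13256 (0.03), Gm14493 (0.04), Gm17077 (0.05) and Gm20512 (0.06), each with an exon opposite another gene. Gm13256, for example, had 643, 1094, 678 and 389 counts in replicates 1 to 4, and Gm14493 615, 952, 595 and 348. For Gm42418 they were Rpl35a (0.06) and Rpl37 (0.08), both large-subunit ribosomal protein genes, Calr (0.06), a chaperone of the endoplasmic reticulum, Sfpq (0.07), a splicing factor, and Cct5 (0.08), a chaperonin subunit. Calr had 506, 205, 134 and 417 counts in replicates 1 to 4. All 5 are protein-coding and 0 of 5 has an exon opposite another gene, while 83.6% of the 1969 genes have one and 59.9% are protein-coding. The 5 genes nearest to Gm26917 were further from it. Its mean count of 36.75 is below the 100 asked of the other genes, so counting error weighs more in its profile. Gm26778 was at 0.23 and the other 4, Gm28379, Arf4os, Gm15591 and 9330154J02Rik, at 0.47 to 0.48. These lists describe 4 libraries and carry no test.

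**Figure D4:**
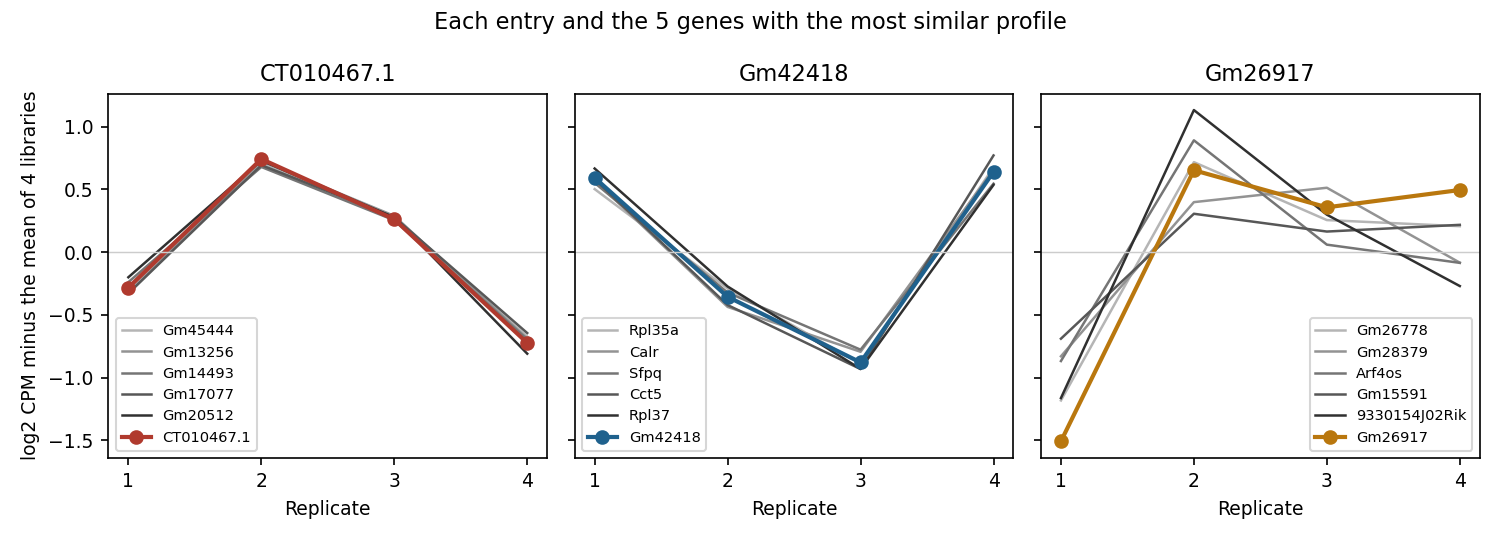
Deviation of log2(CPM + 1) from the 4-library mean in each replicate for CT010467.1, Gm42418 and Gm26917 (coloured) and the 5 genes with the smallest root mean square difference to each (grey); lines only join values of a gene. The 5 genes lie within 0.06 of CT010467.1 and within 0.08 of Gm42418 by that measure, and up to 0.48 from Gm26917.

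The mitochondrial rRNAs are made in the organelle by its own polymerase and do carry short adenosine tails. They went with Gm42418 rather than CT010467.1 in which libraries were high. The median deviation over all genes tested was above 0 in the same libraries, at 0.12 in replicate 1 and 0.13 in replicate 4. The small-subunit rRNA gene mt-Rnr1 had 329, 51, 66 and 363 counts and the large-subunit gene mt-Rnr2 483, 142, 143 and 391 in replicates 1 to 4. Per kb, mt-Rnr1 had 142 ± 127 CPM and mt-Rnr2 119 ± 74.3 CPM (SD, n = 4 each), while Gm42418 had 84.8 ± 49.6 CPM. Whether strand option 1 counts the strand of these RNAs was not tested, so the values need not be levels of mitochondrial rRNA. Neither mitochondrial rRNA has an exon opposite another gene.

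Of the other 353 genes with biotype rRNA, 180 of which carry the n-R5s names of nuclear 5S rRNA genes, 330 had no count. The 23 with a count held 103, 130, 157 and 94 counts together in replicates 1 to 4, or 57.8, 70.0, 109 and 73.8 CPM. CT010467.1 had 620, 818, 408 and 390 times as many. The most counts were those of n-R5s183 (24, 17, 28 and 13), Gm26486 (12, 36, 17 and 12) and Gm26280 (16, 16, 21 and 10), and 6 of the 23 had a count in every library. Among the 23, n-R5s202, n-R5s76 and n-R5s29 lie opposite exons of Emc7, Hddc2 and Eif2ak2. These annotated copies are 37 to 148 bp long, and since similar copies share fragments that are then not counted, low values do not measure the RNA.

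Genes whose proteins make and process rRNA were described by list. Over 6 lists with 86 genes, 73 had a mean count of at least 10 and 67 of these passed the chi-square test, 91.8% against 88.2% over all genes, which is near the background. The median deviation of the 73 was 0.48, -0.34, -0.58 and 0.62 in replicates 1 to 4. Leaving out 1 library kept the sign of each of these medians but moved their size. The median lay between 0.27 and 0.67 for replicate 1 and between -0.58 and -0.20 for replicate 2. It lay between -0.73 and -0.33 for replicate 3 and between 0.38 and 0.86 for replicate 4. Sizes moved by over 1.5 times when replicate 3 was left out, with medians of 0.27 for replicate 1, -0.58 for replicate 2 and 0.38 for replicate 4. They did so too without replicate 4, with -0.20 for replicate 2 and -0.33 for replicate 3, and without replicate 1, with -0.38 for replicate 3. With total counts the median in replicate 2 was -0.56. Among the 44 of them with no opposite exon it was 0.57, -0.32, -0.86 and 0.79. The list medians lay with Gm42418 and not with CT010467.1 on the same side of 0 in each library. So did the medians over all genes tested, 0.12, -0.01, -0.08 and 0.13. TMM scaling holds these near 0, so their sign says little. Both mitochondrial rRNAs, which are outside the lists, lay on these sides too, mt-Rnr2 at 0.65, -0.81, -0.55 and 0.71. This side is therefore not particular to the lists.

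Of the 13 subunits of RNA polymerase I, 9 of 9 tested passed, with median deviations of 0.57, -0.27, -1.09 and 0.81 in replicates 1 to 4. The shared subunit Polr2e had 56, 22, 8 and 45 counts and the shared subunit Polr2f 13, 11, 1 and 28. The subunit Cd3eap had 200, 169, 138 and 114 and has 106 bp of exon opposite another gene. Of the 8 initiation and termination factors, 5 of 6 tested passed, with medians of 0.43, -0.33, -0.30 and 0.23. Ubtf, which shapes active rRNA gene chromatin, had 197, 52, 58 and 66 counts. Taf1d of the promoter selectivity factor had 153, 55, 57 and 222 and has 312 bp of exon opposite other genes. Ttf1, the terminator protein, did not pass the chi-square test with 19, 9, 6 and 9 (adjusted p = 0.27). Tbp, which is shared by all 3 nuclear polymerases, had 1665, 1650, 1524 and 1105 counts and has 2582 bp of exon opposite another gene.

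Of the 11 snoRNP proteins, 5 of 7 tested passed, with medians of 0.63, -0.26, -0.63 and 0.24. Nolc1, a nucleolar snoRNP chaperone, had 217, 89, 42 and 155 counts. Nop56 of the methylation particles had 161, 56, 29 and 76, and Nhp2 of the pseudouridylation particles 92, 34, 60 and 91. Nop56 has 5 bp and Nhp2 44 bp of exon opposite another gene. The rRNA methyltransferase gene Fbl did not pass, with 55, 49, 39 and 38 (adjusted p = 0.83). Of the 20 small-subunit processing genes, 17 of 18 tested passed, with medians of 0.46, -0.36, -0.66 and 0.75. Wdr43 had 110, 19.9, 30.4 and 140 CPM in replicates 1 to 4 and no opposite exon, while Emg1, with 299, 334, 220 and 410 CPM, and Rrp9, with 87.0, 99.6, 98.9 and 71.4 CPM, have exons opposite other genes.

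Of the 20 large-subunit processing and nucleolar genes, 19 of 20 tested passed, with medians of 0.47, -0.43, -0.60 and 0.67. The nucleolar proteins Npm1 and Ncl had the most counts, 2048, 623, 568 and 1684 for Npm1 and 1394, 550, 374 and 1520 for Ncl, and neither has an opposite exon. Nsun5, an rRNA methyltransferase with 665 bp of exon opposite another gene, had 585, 507, 317 and 270. Of the 14 genes of the nuclear exosome and its partners, which trim and degrade rRNA precursors, 12 of 13 tested passed, with medians of 0.36, -0.48, -0.36 and 0.62. Exosc9 had 2131, 2106, 1909 and 1468 counts, Exosc8 200, 129, 83 and 118, and Exosc3 75, 103, 47 and 39, each with an exon opposite another gene. No gene of the 6 lists was at 0 in every library.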

How the data were processed

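The authors deposited, for each gene, a raw fragment count with its exon length; nothing was normalized. Per the file headers they were made with featureCounts 1.4.6-p4 on STAR alignments, paired, both ends mapped, strand option 1, annotation GENCODE M13; per the labels the assembly is mm10. No version of STAR is stated there. Symbols and biotypes came from GENCODE M21 by identifier (50376 of 50600 matched); the members have the same bounds in the files and in M21. Shares used the total count of each library and 95% Wilson intervals. Opposite and shared exons were found with bedtools 2.31.1 (1 bp or more) and similar transcripts with BLAST 2.17.0. Library sizes were scaled by TMM in edgeR 4.0.16, with DESeq2 1.42.0 size factors as an alternative; Python 3.11.15, scipy 1.17.1 and R 4.3.3 were used. With 1 group, no edgeR group contrast exists. On simulated counts for 7752 genes in the spread between the 4 libraries, the chi-square test called 0 with no change. Of 200 genes raised in 1 library it recovered 22.5% at 1.5-fold, 64.5% at 2-fold and 99.5% at 4-fold, with 3, 3 and 19 false calls at these folds. In the data the same test called 88.2%, so the simulated counts lack the spread between these libraries. The simulated rates therefore do not carry over to them. By the rule for named genes, the text took the members, counted neighbours within 50 kb, counted rRNA-type genes, the 5 most similar genes of each entry, and the 3 highest per kb of each list; Fbl, Ttf1, Gm20721, Slc22a19 and the mitochondrial mRNA genes were added after their values were seen. The members and lists were chosen with earlier results of these data known. The labels call the replicates biological. Whether they came from separate animals or cultures is not stated, so the spread between these samples may be technical. The chi-square p-values set that spread against counting error only. The sign-flip p-values ask whether a log2 ratio between 2 members differs from 0 over these libraries. No pair of libraries agreed within sampling noise (median chi-square per degree of freedom over genes from 2.56 to 12.6). The lowest values were 2.56 for replicates 2 and 3 and 4.08 for replicates 1 and 4. Every pair that joined a library of replicates 1 and 4 to 1 of replicates 2 and 3 had a higher value. Alternatives were other denominators, lengths, pseudocounts, size factors and filters, and leaving out each library. A second deposited text per library lists files and was not used. From the list of markers of other cell types, 1 gene is not reported here.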

Additional observations from a re-analysis of the deposited data

How the results depend on the processing

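Of 111 values recomputed under alternatives, 103 kept their direction and their side of the threshold or moved by less than the spread between replicates, and 0 reversed. Only the log2 ratios and the list medians have a sign that could reverse. Shares, levels per kb, chi-square values and numbers of genes past the test cannot be negative, so for them no reversal was possible. With counts of genes with no opposite exon plus the members as the denominator, the mean share was 25.8% for CT010467.1, 0.0819% for Gm42418 and 0.0143% for Gm26917, since that denominator holds fewer genes. The number of genes past the chi-square test was 11689 with no filter on low counts and 2901 with a mean count of at least 50, since the filters change how many are tested (16612 and 3092). Restricting the rRNA synthesis and processing lists to genes with no opposite exon left 40 past the test of 44 tested. Without replicate 1 Gm26917 no longer passed the chi-square test, as given above. Leaving out each library in turn gave mean shares of 3.63% to 4.58% for CT010467.1, 0.0125% to 0.0185% for Gm42418 and 0.00202% to 0.00296% for Gm26917, and log2 ratios per kb of 7.42 to 8.25 for CT010467.1 over Gm42418. With 3 libraries the smallest sign-flip permutation p is 0.25. With unshared exon length in place of all exon, an alternative chosen after seeing the data for the levels per kb, CT010467.1 had 26923 ± 7947 CPM per kb, since that length is shorter. Depth limits Gm26917 most, with 13 to 53 counts a library. No paired analysis was possible because all 4 libraries belong to 1 group.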
